A study of Mus musculus with 20 samples.

Results

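Glycolysis enzymes were followed in the epididymal fat pad of male mice of the inbred strain C57BL6/J during the first days of a high-fat diet. The members were 10 genes listed by name: Hk1 (ENSMUSG00000037012), Hk2 (ENSMUSG00000000628), Gpi1 (ENSMUSG00000036427), Pfkl (ENSMUSG00000020277), Pfkp (ENSMUSG00000021196), Aldoa (ENSMUSG00000030695), Pgk1 (ENSMUSG00000062070), Eno1 (ENSMUSG00000063524), Pkm (ENSMUSG00000032294) and Ldha (ENSMUSG00000063229). All 10 were found among the 39179 genes of the count table, and all 10 were among the 15254 genes that passed the filter on low counts. RNA from whole fat tissue was sequenced in 5 groups of 4 libraries: mice on normal chow, called day 0, and mice switched to the high-fat diet for 2, 4, 6 or 14 days. The series calls the 4 libraries of a group biological replicates. Neither the age of the mice nor whether each library came from 1 animal is given in the sources used here.

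Glycolysis splits glucose into pyruvate in the cytosol and yields ATP and NADH. Hexokinase and phosphofructokinase carry its committed and most regulated steps, and lactate dehydrogenase returns NADH to NAD+ by turning pyruvate into lactate. In adipocytes, the cells that store fat, the pathway also supplies glycerol 3-phosphate for triglyceride and acetyl groups for fatty acid synthesis. Adipocytes release much of the glucose they take up as lactate. Endothelial cells, macrophages and dividing cells in the same fat pad use glycolysis as well. In whole tissue, fewer cells of a type and less RNA per cell cannot be told apart.

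At day 4, 5 of the 10 enzymes were called higher than on chow (adjusted p under 0.05, edgeR), where 18% of all tested genes were. The calls depended on single libraries, as given below. Without chow replicate 4 and day 2 replicate 1, 2 were called, and with library-size scaling 3. The 5 are the phosphofructokinases Pfkl and Pfkp, the aldolase Aldoa, the phosphoglycerate kinase Pgk1 and the lactate dehydrogenase subunit Ldha. The 250 bases upstream of a RefSeq start of each are shown, 5′ to 3′ on the strand of the gene, with coordinates of build GRCm38.p6. Capitals mark ACGTG or GCGTG on either strand. ACGTG lies inside the E-box CACGTG, the letters of MYC and ChREBP family sites, and both 5-letter words are the core of the hypoxia response element. Where a gene had several starts, the window with most matches was taken, and of equal windows the more upstream.
Pfkl, chr10:78009808-78010057, minus strand: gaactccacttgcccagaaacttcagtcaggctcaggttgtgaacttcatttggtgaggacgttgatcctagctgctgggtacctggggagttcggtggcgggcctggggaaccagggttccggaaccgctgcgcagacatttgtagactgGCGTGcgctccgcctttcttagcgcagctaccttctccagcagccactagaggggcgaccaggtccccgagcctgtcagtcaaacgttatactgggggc
Pfkp, chr13:6648772-6649021, minus strand: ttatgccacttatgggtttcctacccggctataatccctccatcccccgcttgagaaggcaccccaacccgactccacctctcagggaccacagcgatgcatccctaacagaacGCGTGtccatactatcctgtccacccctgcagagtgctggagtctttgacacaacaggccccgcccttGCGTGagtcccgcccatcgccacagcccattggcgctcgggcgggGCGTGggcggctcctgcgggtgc
Aldoa, chr7:126799255-126799504, minus strand: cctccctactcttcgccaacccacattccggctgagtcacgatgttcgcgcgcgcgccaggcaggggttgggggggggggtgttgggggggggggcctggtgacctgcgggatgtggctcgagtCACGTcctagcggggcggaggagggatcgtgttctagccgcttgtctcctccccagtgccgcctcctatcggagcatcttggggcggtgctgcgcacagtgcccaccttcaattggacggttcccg
Pgk1, chrX:106186850-106187099, plus strand: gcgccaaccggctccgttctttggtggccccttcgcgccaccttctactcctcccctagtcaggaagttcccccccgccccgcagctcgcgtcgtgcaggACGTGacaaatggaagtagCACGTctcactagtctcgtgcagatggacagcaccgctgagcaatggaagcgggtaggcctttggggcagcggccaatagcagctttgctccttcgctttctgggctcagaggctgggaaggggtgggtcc
Ldha, chr7:46845554-46845803, plus strand: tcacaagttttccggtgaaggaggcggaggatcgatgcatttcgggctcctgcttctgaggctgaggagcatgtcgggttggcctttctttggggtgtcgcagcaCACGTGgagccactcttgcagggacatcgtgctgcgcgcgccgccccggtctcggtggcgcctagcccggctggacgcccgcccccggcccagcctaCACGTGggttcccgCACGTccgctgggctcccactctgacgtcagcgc

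The Ldha window held 5 matches, 2 pairs of them formed by a CACGTG read on both strands. The Pfkp window held 3, all GCGTG, the Pgk1 window 2, both ACGTG, and the Pfkl and Aldoa windows 1 each. RefSeq lists 17 such windows for the 10 enzymes, and 13 of the 17 (76.5%) held either word. Among all 32851 windows of the same length the share was 38.6%. ACGTG was in 6 of the 17 windows against 16.6% of all windows, and GCGTG in 7 against 28.2%. CACGTG was in 1 window, that of Ldha, against 6.02%. Some windows of Aldoa and of Eno1 overlap each other and were counted separately. By gene, 9 of 10 enzymes had a match, against 41.5% of 27025 genes, and Gpi1 had none in its window. The enzymes had more windows per gene (17 for 10) than all genes (32851 for 27025), and so more places for a match. Both words contain CG, and the GC content of the 17 windows ran from 49.6 to 71.2%. The shares were not matched for GC content. Hk1, Hk2, Eno1 and Pkm, which were not called at day 4, had matches too. A match is a description of letters and not evidence of a bound factor.

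Library totals ran from 1916829 to 38832429 counts, the lowest being replicate 1 of day 2. The labelled tissue was checked with 12 adipocyte markers, whose summed level was 36579 to 79679 CPM in the 20 libraries (CPM is the read count of a gene rescaled to a common library total after TMM normalization). Chow replicate 4 held 421 CPM of summed epididymal and ductal epithelium markers, while the other chow libraries held 12.6 to 27.8 CPM. Results were therefore also computed without that library and the shallow day 2 library, together called the doubted libraries, a choice made after seeing the data. All 16 dividing cell markers were called higher at day 4, with summed levels of 80.1 to 754 CPM against at most 60.4 CPM on chow. Of 12 endothelial markers 6 were called higher at day 4 (1306 to 2373 CPM against 1093 to 1420 CPM), and 3 were with library-size scaling or without both doubted libraries. Of the 12 adipocyte markers, Lep was called higher and Adipoq and Cfd lower. Of 16 macrophage markers 1, Cd14, was called lower, and all 10 mesothelial markers were. Of 15 skeletal muscle markers, a tissue rich in glycolytic enzymes, only 6 passed the filter. Ckm, its defining creatine kinase, had 0 reads in 18 of 20 libraries. Acta1, Actn3, Ryr1, Casq1 and Myh1 had reads in all 20, Acta1 at up to 68.8 CPM. Of the 6 muscle markers tested, 1 was called higher and 1 lower at day 4. At day 4, 35.3% of all tested genes were called in either direction. What these shifts contribute to the enzymes was not tested.

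On chow, levels per kilobase of exon spanned a wide range. Aldoa stood highest at 453 ± 97.7 CPM per kb (SD, n = 4), followed by Ldha at 242 ± 37.3 CPM per kb. Pkm (88.9 ± 18.7 CPM per kb) and Eno1 (85.2 ± 18.8 CPM per kb) came next, with overlapping ranges. Pgk1 (38.8 ± 3.59 CPM per kb) and Gpi1 (34.8 ± 2.78 CPM per kb) overlapped as well. The first-step and third-step enzymes were lowest: Hk2 22.6 ± 2.31, Pfkl 17 ± 1.51, Pfkp 6.93 ± 1.73 and Hk1 4.11 ± 0.258 CPM per kb. The ranges of these last 4 genes did not overlap between neighbours. Exon lengths were the union of GENCODE M21 exons (13401 bases for Pfkp), which would understate the level of a gene with long exons that are seldom used. Exon use was not tested.

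Together the 10 enzymes held 0.333 to 0.476% of all counts on chow, 0.326 to 0.506% at day 2, 0.446 to 0.556% at day 4, 0.363 to 0.465% at day 6 and 0.299 to 0.424% at day 14. Their summed level was 3711 ± 613 CPM on chow and 4997 ± 462 CPM at day 4 (SD, n = 4 each). It was 4616 ± 875 CPM at day 2, 4228 ± 556 CPM at day 6 and 3548 ± 733 CPM at day 14. Aldoa and Ldha supplied most of this sum, so it mainly describes these 2 abundant genes.

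**Figure D1:**
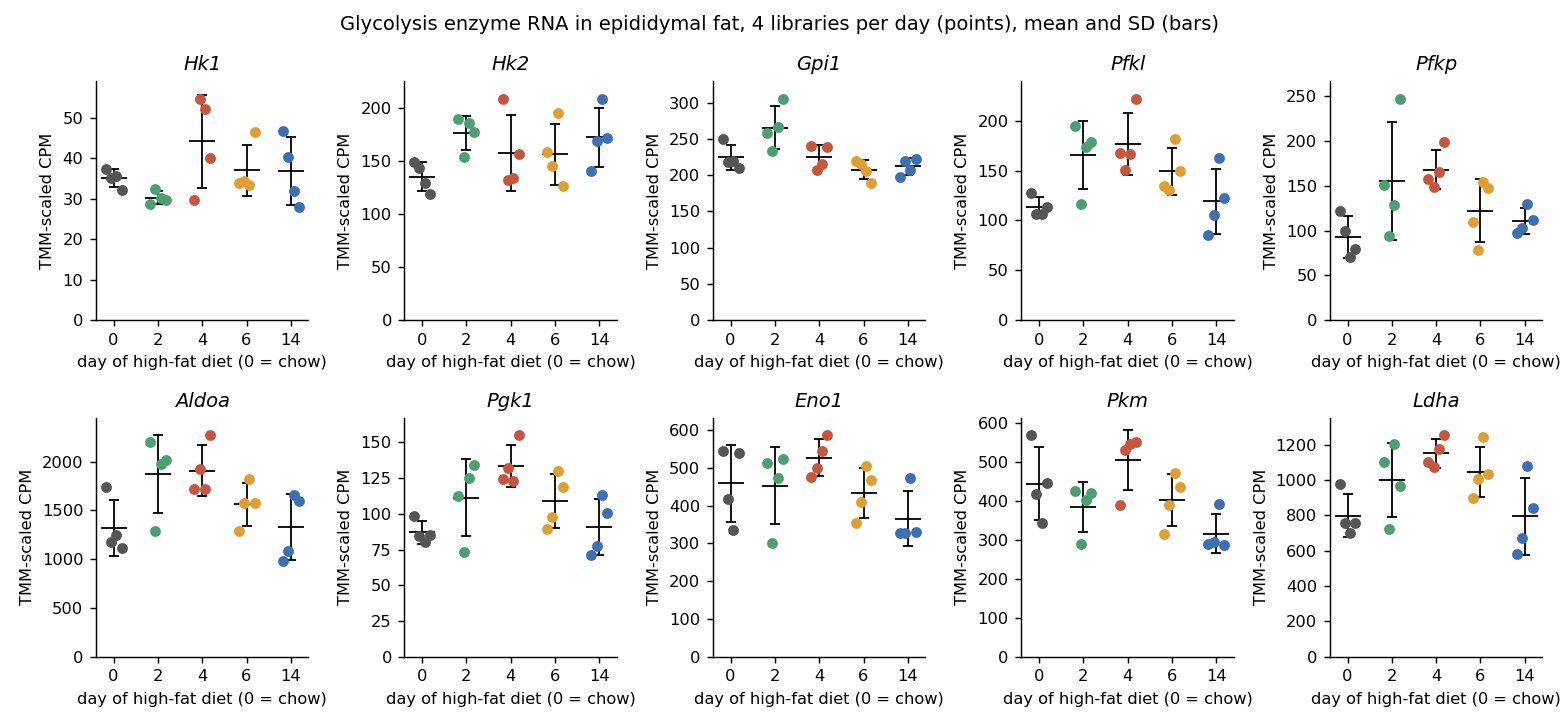
TMM-scaled CPM (y axis, linear from 0) of the 10 enzymes by day of high-fat diet (x axis, 0 is chow). Points are libraries, 4 per day, with the mean and SD as bars. All 4 day 4 libraries lie above all 4 chow libraries for Pfkl, Pfkp, Pgk1 and Ldha, while the Hk1 points at day 4 spread from 29.7 to 54.6 CPM.

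Against chow, edgeR's quasi-likelihood F test, adjusted over all 15254 genes by the Benjamini-Hochberg method, called 0 of 10 enzymes at day 2, 5 at day 4 (all higher), 0 at day 6 and 0 at day 14. These shares are read against 4.39%, 35.3%, 3.45% and 1.18% of all tested genes called in either direction at those days. At day 4, 18% of all tested genes were called higher. At an unadjusted p under 0.05 the counts of enzymes were 5, 5, 2 and 2, against 25.8%, 46.2%, 24.4% and 18% of all genes. DESeq2 called 2 enzymes at day 2, Pfkl and Pfkp, 5 at day 4, and 0 at days 6 and 14. The day 2 count was also 5 without day 2 replicate 2 (Gpi1, Pfkl, Pfkp, Aldoa and Pgk1) and 2 without chow replicate 1 (Pfkp and Aldoa). The median log2 change of the 10 enzymes was 0.34 at day 2, 0.42 at day 4, 0.23 at day 6 and 0.03 at day 14, beside all-gene medians of -0.03, -0.02, -0.01 and -0.01. All 10 enzymes had a log2 change above 0 at day 4 (48.3% of all genes), Gpi1 at 0.01 only. With library-size scaling, which moved the all-gene median to -0.13, Gpi1 was at -0.10. All 4 comparisons share the same chow libraries, so they are not independent of each other.

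**Figure D2:**
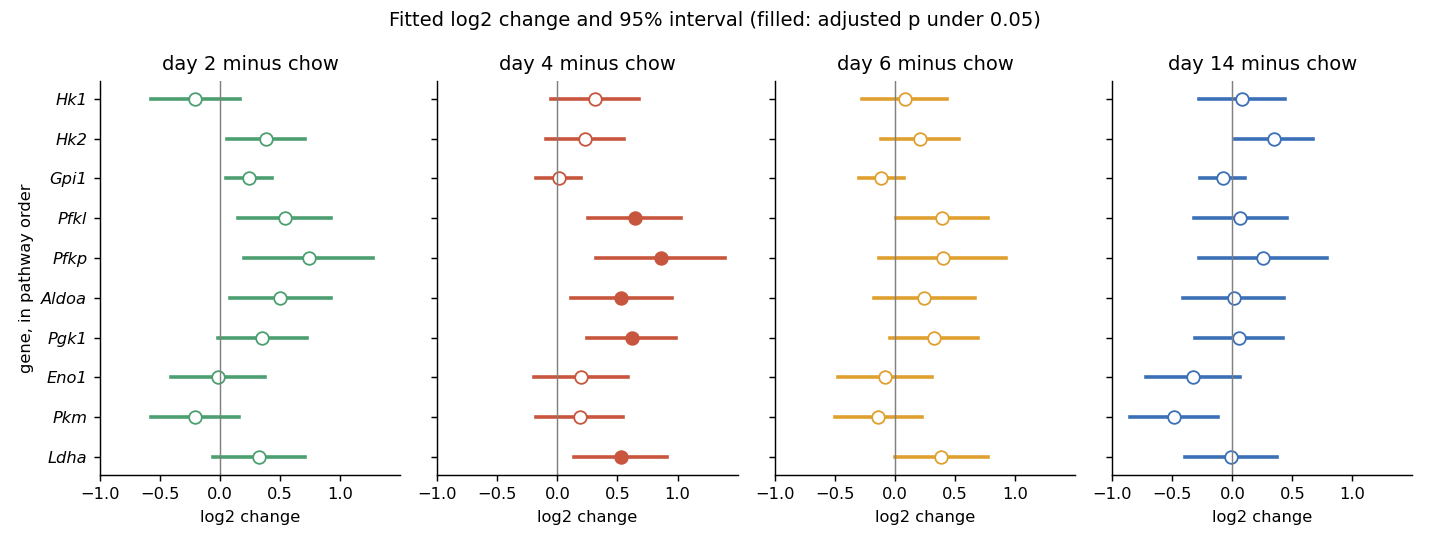
Fitted log2 change against chow (x axis) of each enzyme (y axis, in pathway order) at the 4 high-fat days, with its 95% interval as a line. Filled circles, adjusted p under 0.05, appear at day 4 only: Pfkl, Pfkp, Aldoa, Pgk1 and Ldha.

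Hexokinases phosphorylate glucose and trap it in the cell. Hk2, the insulin-responsive form of muscle and fat, was at 149, 144, 129 and 119 CPM in the 4 chow libraries and at 189, 154, 186 and 177 CPM at day 2. All 4 day 2 libraries lay above all chow libraries, by a log2 change of 0.38 ± 0.15 (SE) that was not called (adjusted p = 0.127, edgeR). Such a separation upward was seen for 1 of 10 enzymes, and for 5.47% of all genes at day 2. At day 4 the Hk2 levels were 209, 132, 134 and 157 CPM (log2 change 0.23 ± 0.15, adjusted p = 0.251, edgeR). Day 6 gave 127 to 195 CPM and day 14 gave 141 to 209 CPM, with log2 changes of 0.21 and 0.35, neither called.

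Hk1, the broadly expressed hexokinase, was tightly grouped on chow at 37.3, 35.1, 35.7 and 32.1 CPM and at day 2 at 28.6, 32.4, 30.2 and 29.7 CPM. At day 4 it was at 29.7, 54.6, 52.2 and 40.0 CPM, so replicate 1 lay below every chow library and the other 3 above. The log2 change at day 4 was 0.31 ± 0.17 (SE) and was not called (adjusted p = 0.158, edgeR). Without day 4 replicate 1 it was 0.47 and was called (adjusted p = 0.0242, edgeR). Day 4 replicate 1 was also the day 4 library with the lowest mean of the dividing cell markers, a log2 value of 0.85 above the chow mean where the other 3 had 3.87 to 4.10. Its endothelial markers were at -0.01 on the same scale, against 0.51 to 0.77. At day 6 Hk1 was at 33.8, 34.4, 33.3 and 46.4 CPM. The high library, replicate 4, again carried the highest dividing cell mean of its day (3.40 against 0.57 to 1.61) and the highest endothelial mean (0.72 against -0.15 to 0.12). At day 14 Hk1 ran from 28 to 46.7 CPM.

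Gpi1, the glucose-6-phosphate isomerase, was at 251, 218, 219 and 210 CPM on chow and at 258, 233, 266 and 306 CPM at day 2. The groups overlapped and the log2 change of 0.24 ± 0.09 (SE) was not called (adjusted p = 0.103, edgeR). At day 4 it was at 208 to 240 CPM, at day 6 at 189 to 219 CPM and at day 14 at 198 to 223 CPM. Gpi1 and Pfkl were the 2 enzymes called in the test of any difference among the 5 days (adjusted p = 0.0385 and 0.0416, edgeR), a test that called 19.6% of all genes. For Gpi1 the highest day mean was day 2 (266 ± 30.1 CPM) and the lowest day 6 (208 ± 13.4 CPM, SD, n = 4 each). Without chow replicate 4 and day 2 replicate 1, the joint test called 0 enzymes. Leaving out single libraries gave between 0 calls, as without chow replicate 2, and 7, without day 2 replicate 2.

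Phosphofructokinase commits the sugar to glycolysis. Pfkl, the liver-type subunit, was at 128, 106, 107 and 113 CPM on chow and at 167, 151, 167 and 222 CPM at day 4. All 4 day 4 libraries lay above all chow libraries. The log2 change was 0.64 ± 0.18 (SE), a 1.56-fold rise (adjusted p = 0.0117, edgeR). At day 2 the Pfkl levels were 195, 117, 174 and 179 CPM (0.54 ± 0.18, adjusted p = 0.0832, edgeR), with replicate 2 inside the chow range. Day 6, at 135, 130, 182 and 150 CPM, again lay wholly above chow but was not called (0.40 ± 0.18, adjusted p = 0.185, edgeR). The day 6 libraries did so for 6.2% of all genes. Day 14 spread from 85.3 to 163 CPM around the chow levels.

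Pfkp, the platelet-type subunit, had the highest log2 change among the 10 enzymes at day 4. It was at 122, 100, 70.2 and 79.1 CPM on chow and at 157, 149, 166 and 199 CPM at day 4, again without overlap. The log2 change was 0.86 ± 0.25 (SE), a 1.81-fold rise (adjusted p = 0.0142, edgeR). Its day 2 libraries, at 151, 93.7, 128 and 247 CPM, spread over a wider range than at any other day. There the log2 change of 0.74 ± 0.25 was not called (adjusted p = 0.0867, edgeR), and without day 2 replicate 4, the highest library, it was 0.41. Day 6 gave 78.7 to 154 CPM and day 14 gave 97.8 to 130 CPM.

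Aldoa, the aldolase that splits fructose 1,6-bisphosphate, was at 1739, 1178, 1247 and 1116 CPM on chow and at 1722, 1922, 1722 and 2268 CPM at day 4. Chow replicate 1 lay inside the day 4 range, so these groups overlapped. The log2 change was 0.53 ± 0.20 (SE) with an adjusted p of 0.0436 (edgeR), close to the threshold. At day 2 the levels were 2202, 1292, 1979 and 2016 CPM (0.50 ± 0.20, adjusted p = 0.121, edgeR). Day 6 gave 1288 to 1823 CPM and day 14 gave 986 to 1655 CPM.

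Pgk1 makes the first ATP of the pathway. It was at 98.8, 84.6, 80.1 and 85.0 CPM on chow and at 124, 132, 123 and 155 CPM at day 4, without overlap. The log2 change was 0.62 ± 0.17 (SE), a 1.53-fold rise (adjusted p = 0.0113, edgeR). Day 2, at 113, 73.4, 125 and 134 CPM, had 3 libraries above chow and replicate 2 below it (0.35 ± 0.17, adjusted p = 0.206, edgeR). Day 6 gave 89.6 to 130 CPM and day 14 gave 71.3 to 114 CPM.

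The enolase and pyruvate kinase genes near the end of the pathway did not pass the test at any day. Eno1 was at 543, 417, 335 and 539 CPM on chow and at 475, 499, 544 and 585 CPM at day 4, with a log2 change of 0.20 ± 0.18 (SE). Pkm was at 569, 418, 344 and 447 CPM on chow and at 390, 532, 548 and 551 CPM at day 4 (0.19 ± 0.17). The chow libraries of both genes spread widely. The 95% intervals at day 4, -0.19 to 0.59 for Eno1 and -0.18 to 0.55 for Pkm, include the log2 changes of Aldoa and Ldha (0.53 each) but not those of Pfkl, Pfkp and Pgk1. Differences between enzymes were not tested. At day 14 Pkm was at 291, 295, 394 and 288 CPM, below the chow mean in 4 of 4 libraries. Its log2 change of -0.49 ± 0.17 was not called (adjusted p = 0.135, edgeR). Eno1 at day 14 was at 328, 327, 474 and 330 CPM (-0.33 ± 0.18, adjusted p = 0.357, edgeR).

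Ldha encodes the lactate dehydrogenase subunit that favours lactate production. It was at 981, 758, 702 and 758 CPM on chow and at 1102, 1075, 1175 and 1253 CPM at day 4, without overlap. The log2 change was 0.53 ± 0.18 (SE), a 1.44-fold rise (adjusted p = 0.0299, edgeR). Day 2 (1104, 724, 1207 and 968 CPM) and day 6 (900, 1007, 1244 and 1035 CPM) overlapped the chow range and were not called. Day 14 spread from 584 to 1080 CPM, on both sides of chow.

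In all, 4 of the 10 enzymes lay wholly above chow at day 4, a separation upward seen in 15.2% of all genes. The calls depended on single libraries. Without day 4 replicate 4, the day 4 library with the highest Pfkl, Pfkp, Aldoa, Pgk1 and Ldha, 0 of 10 enzymes were called: Pfkl had an adjusted p of 0.0635, Pfkp 0.0571, Pgk1 0.0541, Ldha 0.0933 and Aldoa 0.149 (edgeR). Pfkl, Pfkp and Pgk1 were called in each of the other 7 fits that left out 1 library. Ldha was called in 3 of 8 and Aldoa in 2 of 8. Both lost their call without chow replicate 2 (adjusted p = 0.075 for Ldha and 0.11 for Aldoa), chow replicate 3 (0.0825 and 0.092), chow replicate 4 (0.0713 and 0.121) or day 4 replicate 3 (0.0629 and 0.0546). Aldoa also lost it without day 4 replicate 2 (0.0764). Without chow replicate 4 and day 2 replicate 1 together, 2 enzymes were called, Pfkl (adjusted p = 0.0334) and Pgk1 (0.0388), while Pfkp had 0.0569. With library-size scaling 3 were called, since Aldoa (0.0681) and Ldha (0.0546) missed the threshold.

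Between high-fat days no enzyme was called. Day 4 against day 2 called 0 of 10 (2.4% of all genes), with 3 at an unadjusted p under 0.05 (22.3% of all genes) and 0 by DESeq2. Hk1 had the highest log2 change there, 0.52 ± 0.18 (SE, adjusted p = 0.106, edgeR), and Gpi1 the lowest, -0.23 ± 0.09 (adjusted p = 0.143, edgeR). Hk1 was the 1 enzyme called without day 4 replicate 1, at a log2 change of 0.68. Day 6 against day 4 called 0 of 10 enzymes and 0% of all genes, and all 10 fitted changes were below 0, from -0.46 for Pfkp to -0.02 for Hk2. None of the 10 had an unadjusted p under 0.05 (16.3% of all genes), and DESeq2 called 0. Day 14 against day 6 called 0 of 10 and 0% of all genes, with 7 fitted changes below 0 and 1 enzyme, Ldha (-0.40 ± 0.18), at an unadjusted p under 0.05 (3.33% of all genes). DESeq2 called 0 there too.

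**Figure D3:**
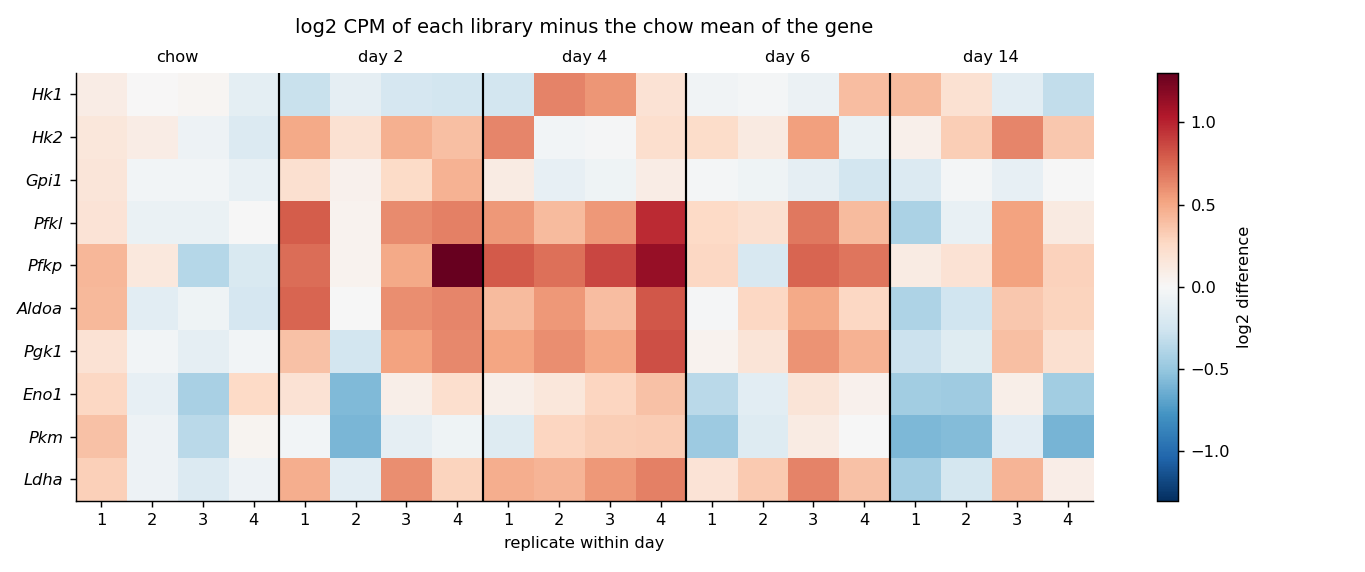
Log2 CPM of each enzyme (rows, pathway order) in each of the 20 libraries (columns, by day and replicate), minus the chow mean of that enzyme; red is higher and blue lower. The 4 day 4 columns are red in the Pfkl, Pfkp, Aldoa, Pgk1 and Ldha rows, and the Hk1 row takes the opposite colour to the Hk2 row in several libraries.

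Within days, most of the enzymes varied together from library to library. As a description over the 20 libraries, after subtracting each day's mean, the 45 pairs of enzymes had a median Pearson r of 0.546, with 24 pairs above 0.5. The closest pair was Eno1 and Pkm at 0.910. Measured against the mean of the other 9 enzymes, Pgk1 had the highest within-day r (0.92), then Pfkl (0.88), Ldha (0.86), Eno1 (0.86), Aldoa (0.85), Pkm (0.84) and Pfkp (0.75). Gpi1 (0.40) and Hk2 (0.39) followed the others loosely, and Hk1 did not (-0.30). Libraries share depth and tissue composition across genes, so these values carry no p. The mean log2 level of the 10 enzymes, set to 0 at the chow mean, ran from -0.16 to 0.26 in the chow libraries. All 4 day 4 libraries lay above that range (0.32, 0.37, 0.40 and 0.56). At day 2, replicate 2 (-0.13) stood apart from the others (0.37, 0.33 and 0.44). At day 14, replicate 3 (0.25) lay above the other 3 libraries (-0.22, -0.11 and -0.00).

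The 2 hexokinases ran opposite to each other. Their within-day r was -0.750, the lowest of the 45 pairs, and all 8 negative pairs included Hk1. Hk1 followed the mean of the 12 endothelial markers (r = 0.87 within days) and of the 16 dividing cell markers (0.70), and ran against the 12 adipocyte markers (-0.56). Hk2 ran the other way, with -0.72, -0.59 and 0.59 for the same lists. Without day 4 replicate 1 and day 6 replicate 4, the libraries that stood apart for Hk1, the value over the 18 left was -0.51 for Hk1 and Hk2. For Hk1 it was 0.75 with the endothelial markers and 0.15 with the dividing cell markers, so the latter rested on those libraries.

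Read ratios within a library do not depend on scaling. The log2 ratio of Hk2 to Hk1 reads was 1.94 ± 0.09 on chow and 2.54 ± 0.20 at day 2 (SD, n = 4 each). The difference of 0.60 had an exact two-sided permutation p of 0.0286, the smallest that 4 against 4 libraries can give, and 0.171 after adjustment over the 12 ratio tests. At day 4 the same ratio spread from 1.27 to 2.81, with 0.943 as its exact p. The ratio of Ldha to Ldhb, the subunit that favours pyruvate, was 3.59 ± 0.22 on chow and 4.31 ± 0.21 at day 4, all 4 day 4 libraries above all chow libraries. The difference was 0.72 (exact permutation p = 0.0286, adjusted 0.171). At day 6 it was 0.42 (exact p = 0.0571, adjusted 0.229) and at day 14 0.07. Ldhb itself was at 65.7 ± 3.85 CPM on chow and 58.0 ± 7.09 CPM at day 4 and was not called. For Pfkl to Pfkp, the ratio was 0.32 ± 0.28 on chow and 0.07 ± 0.07 at day 4, a difference of -0.25 (exact p = 0.2, adjusted 0.457). None of the 12 ratio tests passed after adjustment.

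**Figure D4:**
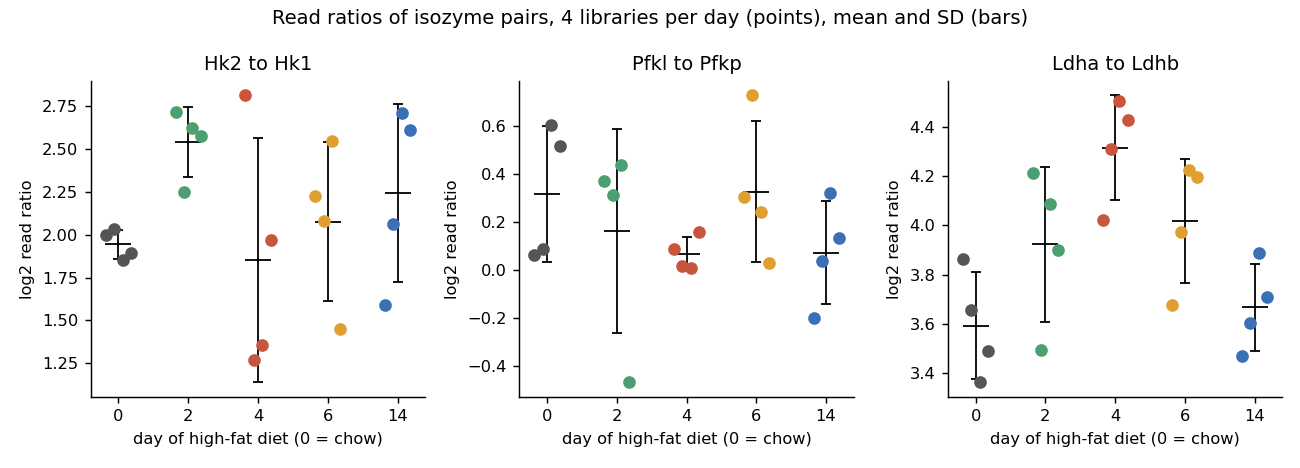
Log2 read ratios of 3 isozyme pairs (y axis, not from 0) by day of high-fat diet (x axis, 0 is chow), with 4 libraries per day as points and mean and SD as bars. Ldha to Ldhb is highest at day 4, and Hk2 to Hk1 spreads from 1.27 to 2.81 at that day.

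The other glycolytic enzymes were taken from a list of 17 genes, of which 14 passed the filter. At day 4, 2 were called higher and 4 lower, where 35.3% of all tested genes were called in either direction. With library-size scaling 2 were called higher and 6 lower, and without both doubted libraries 2 and 2. Tpi1, the triose phosphate isomerase between aldolase and Gapdh, was at 438, 277, 312 and 310 CPM on chow and at 688, 864, 729 and 932 CPM at day 4. It rose by 1.26 ± 0.22 on the log2 scale (SE, adjusted p = 0.00125, edgeR), without overlap. At day 2 it was 0.91 ± 0.22 higher (adjusted p = 0.0304) and at day 6 0.84 ± 0.22 higher (0.0463). The day 2 call held in 2 of 8 fits that left out 1 library (without chow replicate 1, 0.0126, or day 2 replicate 2, 0.0116). In the others it was lost, with adjusted p values from 0.0563 without day 2 replicate 3 to 0.113 without day 2 replicate 4. The day 6 call likewise held only without chow replicate 1 (0.0227) or day 6 replicate 1 (0.0204). Pgam1, the phosphoglycerate mutase, rose at day 4 from 70.1 ± 7.05 to 105 ± 9.55 CPM (log2 change 0.59 ± 0.15, adjusted p = 0.00643, edgeR). The day 4 calls of Tpi1 and Pgam1 held in 8 of 8 such fits.

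Gapdh, the NADH-producing step, was at 1240, 803, 753 and 820 CPM on chow and at 942, 1105, 1354 and 1314 CPM at day 4. Its log2 change was 0.38 ± 0.20 (SE) and was not called (adjusted p = 0.147, edgeR). The 2 enolases typical of muscle and nerve, Eno3 and Eno2, fell at day 4 from low levels. Eno3 went from 9.97 ± 1.69 to 4.10 ± 0.93 CPM (-1.26 ± 0.25, adjusted p = 0.00195) and Eno2 from 4.1 ± 0.40 to 2.1 ± 0.66 CPM (-0.95 ± 0.29, adjusted p = 0.0172, edgeR). The Eno2 call was lost without day 4 replicate 3 (0.0523) or day 4 replicate 4 (0.0622). The call of Aldoc, named after its values were seen, rested on chow replicate 4. That library, which carried the epithelial markers, had 6.9 CPM of Aldoc, and without it the adjusted p was 0.499. At day 2 (4.39% of all tested genes called), Tpi1 was called higher and Aldoc lower, the latter also lost without chow replicate 4 (0.27). At day 14, 0 of 14 were called, beside 1.18% of all tested genes.

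**Figure D5:**
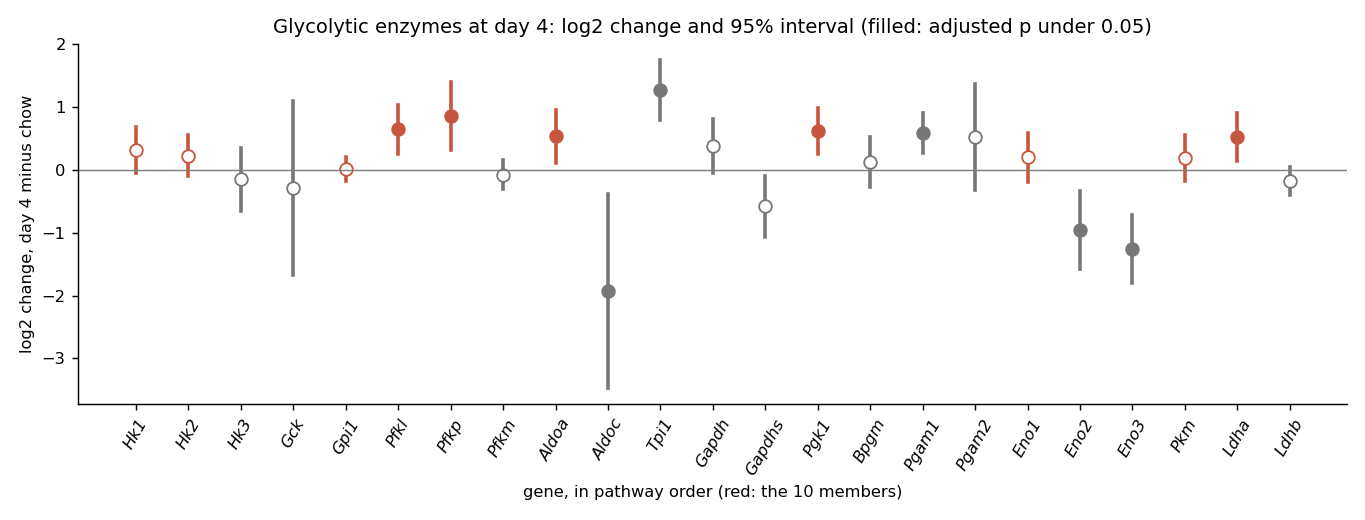
Log2 change at day 4 against chow (y axis) of the 10 members in red and of 13 other glycolytic enzymes in grey, in pathway order (x axis), with 95% intervals as lines. Filled circles have an adjusted p under 0.05: Tpi1 stands highest at 1.26, and Aldoc, Eno2 and Eno3 lie below 0.

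Near-identical copies can share reads with a member. Of 6 such genes, Eno1b, Aldoart1 and Aldoart2 passed the filter and Pgk1-rs7, Gapdh-ps15 and Hkdc1 did not. At chow their levels were 0.6 ± 0.31 CPM for Eno1b, 2.0 ± 0.28 CPM for Aldoart1 and 0.9 ± 0.56 CPM for Aldoart2, and 0 of 3 were called at day 4. Levels of Eno1, Aldoa, Pgk1 and Gapdh remain uncertain by whatever reads were split between copies.

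Of 19 regulators of glycolytic flux, 18 passed the filter, and at day 4, 4 were called higher and 4 lower. Of all tested genes, 35.3% were called in either direction at that day. With library-size scaling 3 were called higher and 8 lower, and without both doubted libraries 3 and 5. Pfkfb4 is of the enzyme family that sets the level of the phosphofructokinase activator fructose 2,6-bisphosphate. It rose from 16.5 ± 3.42 to 47.6 ± 9.89 CPM (log2 change 1.52 ± 0.22, adjusted p = 0.000669, edgeR). Pfkfb3, of the same family, was far more abundant, at up to 1845 CPM in a library against 58.0 CPM for Pfkfb4. Pfkfb1, Pfkfb2 and Pfkfb3 were not called at day 4. Hif1a, the oxygen-regulated transcription factor of many glycolytic genes, rose from 79.7 ± 14.5 to 186 ± 29.6 CPM (1.22 ± 0.24, 0.00183). Tigar, a phosphatase that lowers fructose 2,6-bisphosphate, rose as well, from 10.2 ± 1.00 to 18.6 ± 3.14 CPM (0.87 ± 0.19, 0.00273). Txnip, a glucose-induced inhibitor of glucose uptake, fell from 1377 ± 709 to 277 ± 86.3 CPM (-2.31 ± 0.45, 0.00173). These 4 calls held in 8 of 8 fits without 1 library. At day 2, where 4.39% of all tested genes were called, Hif1a was the 1 regulator called (1.05 ± 0.24, adjusted p = 0.0252, edgeR). That call was lost without chow replicate 2 (0.0746), 3 (0.0519) or 4 (0.0818) and without day 2 replicate 1 (0.0746) or 4 (0.119). At day 6 (3.45% of all tested genes called), Pfkfb4 was called higher (0.83) and Pdk1 lower (-0.59). These calls held in 2 of 8 and 0 of 8 fits without 1 library. At day 14 (1.18% of all tested genes called) the 1 call was Pdk1, a kinase that restrains pyruvate dehydrogenase, at -0.92 ± 0.16 (adjusted p = 0.00878, edgeR).

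Of 14 hypoxia-responsive genes outside the pathway, 1 was called higher and 5 lower at day 4 (1 and 7 with library-size scaling). Of all tested genes, 35.3% were called in either direction at that day and 18% were called higher. The median log2 change of the 14 was -0.38, and -0.28 without both doubted libraries, beside -0.02 for all genes. Kdm3a, a histone demethylase, fell by 0.80 on the log2 scale, Ndrg1 by 1.10 and Mxi1, a MYC antagonist, by 0.62, and these 3 calls held in 8 of 8 fits without 1 library. Vegfa, the endothelial growth factor, rose by 0.54 ± 0.15 (adjusted p = 0.0108, edgeR), a call lost without day 4 replicate 4 (0.0575). Without chow replicate 4 and day 2 replicate 1 the counts were 1 higher and 5 lower as in all libraries, but the gene called higher was then Ankrd37 (0.0455), named after its value was seen, while Vegfa had an adjusted p of 0.051.

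Counts for genes on either side of the pathway were set beside the 35.3% of all tested genes called in either direction at day 4. The list of glucose and lactate transporters held 8 genes, including the lactate receptor Hcar1, which is not a transporter. Of these 8, 0 were called higher at day 4 and 2 lower (4 lower with library-size scaling, 1 without both doubted libraries). The 2 were Slc2a3, a high-affinity glucose transporter (-1.46 ± 0.38, adjusted p = 0.00719), and Hcar1 (-1.14 ± 0.44, 0.0498, edgeR). The Hcar1 call held without chow replicate 1 or 4 only, and in the other 6 fits its adjusted p ran from 0.0514 without day 4 replicate 1 to 0.175 without chow replicate 3. Slc2a4, the insulin-responsive glucose transporter, was at 219 ± 41.6 CPM on chow and 192 ± 43.8 CPM at day 4, and Slc2a1 at 15.8 ± 3.12 and 15.1 ± 1.02 CPM, neither called. Of 7 genes of gluconeogenesis and glyceroneogenesis, 5 passed the filter and 2 were called lower at day 4 (3 with library-size scaling, 1 without both doubted libraries). Pck1, the enzyme by which adipocytes make glycerol 3-phosphate without glucose, fell from 2584 ± 1084 to 650 ± 236 CPM (-1.99 ± 0.36, adjusted p = 0.00125, edgeR), a call kept in 8 of 8 fits. The other, Fbp2, rested on chow replicate 4, without which its log2 change was 0.26 (adjusted p = 0.778).

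Of 19 genes of the pentose phosphate, glycerol phosphate and glycogen branches, 4 were called higher and 3 lower at day 4. This is near the 35.3% of all tested genes called in either direction at that day. The counts were 4 and 5 with library-size scaling, and 2 and 2 without both doubted libraries. The NADPH-producing dehydrogenases rose: Pgd from 468 ± 162 to 871 ± 117 CPM (log2 change 0.90 ± 0.24, adjusted p = 0.00972) and G6pdx from 281 ± 49.8 to 400 ± 55.2 CPM (0.51 ± 0.13, 0.00756, edgeR). Tkt, the transketolase that returns pentose carbon to glycolysis, fell at day 4 (-0.86 ± 0.22, adjusted p = 0.00682) and at day 14 (-1.35 ± 0.22, 0.00653, edgeR). Pygb, a glycogen phosphorylase, fell at day 4 (-0.75 ± 0.19, 0.00592, edgeR). These calls held in 8 of 8 fits without 1 library. Tkt was also called lower at day 2 (-1.01, held in 5 of 8 such fits) and at day 6 (-0.95, 4 of 8). As a description, the mean of the 19 branch genes followed the mean of the 10 enzymes within days with r = 0.80 over 20 libraries. Taken singly, Ldha (0.85), Hk2 (0.82), Pfkl (0.80), Aldoa (0.78) and Pgk1 (0.74) followed the branch mean most closely. Hk1 ran against it (-0.50). The mean of the 14 other glycolytic enzymes did not follow the 10 enzymes (-0.27 within days). Nor did those of the 18 regulators (0.02) and of the 8 genes of the transporter list (-0.53).

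Across all 10536 tested genes outside the members with a mean of at least 5 CPM, the 8 closest in profile to the mean of the 10 enzymes were Nsdhl, Lss, Fdps, Lmtk2, Pgd, Timm22, Ran and Idi1. Their r over 20 libraries ran from 0.949 for Idi1 to 0.963 for Nsdhl. Nsdhl, Lss, Fdps and Idi1 encode enzymes of cholesterol synthesis. This measure includes the differences between days, so genes high at day 4 were favoured by it: Nsdhl, for one, had a mean of 60.5 CPM on chow and 144 CPM at day 4. For the same 8 genes, chosen by that measure, the within-day r ran from 0.918 for Ran to 0.949 for Pgd. Of the pathway's other steps, Gapdh ranked 32 by this measure (r = 0.921), Pgam1 83 (0.899) and Tpi1 141 (0.881).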

How the data were processed

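RNA of epididymal fat was isolated with a column kit and made into TruSeq RNA libraries, per the labels' protocols. The values deposited are whole-number read counts per Ensembl gene ID for 20 libraries. CASAVA, STAR, featureCounts, limma and R 3.0 are listed in the submitters' processing notes, without their roles. Genome build, annotation and strand setting are not given in the sources used here, so reads of overlapping or antisense genes cannot be told apart. Symbols were found for 37607 of 39179 IDs by ID in a table of gene names.

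Counts were analysed in R 4.3.3 with edgeR 4.0.16: filterByExpr by group (minimum count 10, minimum total 15), TMM scaling and a robust quasi-likelihood F test on all 20 libraries with the group as the only term (15 residual degrees of freedom, biological coefficient of variation 0.209). Standard errors were derived from F. Benjamini-Hochberg adjustment ran over 15254 genes in each comparison, and an adjusted p under 0.05 made a call. Log2 CPM for profiles used a prior count of 2. Ratios used counts plus 0.5 and exact permutation tests. Scripts were tested on simulated data. Promoter windows came from RefSeq.

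Named genes were all 10 members. Each other list gave up to 4 called genes of smallest adjusted p or, where it had no call, its 2 most abundant genes. Tpi1, Gapdh, Pgam1, the near-identical copies and the 8 closest profiles completed the rule. Some genes were named outside this rule, among them Slc2a4, Slc2a1, Ldhb, Pfkfb1, Pfkfb2, Pfkfb3 and the muscle markers. Members and lists were chosen with earlier results of these data known. Alternatives were DESeq2 1.42.0, limma-voom (limma 3.58.1), other scalings, filters and thresholds, a replicate block, and fits without single libraries. Same-numbered libraries were not taken as paired: not every pair's deviations from the day means correlated over 0.1. That rule is strict and does not exclude pairing. The values of 1 other listed gene are not reported here.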

Additional observations from a re-analysis of the deposited data

Results flagged for a closer look

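Of 80 groups of 4 libraries, 8 had 1 value far from the other 3, where chance alone gives about 1 in 20. The groups come from the same libraries and from genes that vary together, so the flags are not independent. Their count is no test of an excess. Hk1 at day 6 was 46.4 CPM in replicate 4 against 33.3 to 34.4 CPM in the others. That library also had the highest dividing cell and endothelial marker means of its day.

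Pkm was flagged at 3 days: 290 CPM in replicate 2 of day 2 (others 404 to 426 CPM), 390 CPM in replicate 1 of day 4 (others 532 to 551 CPM) and 394 CPM in replicate 3 of day 14 (others 288 to 295 CPM). Eno1 stood out in the same day 14 library at 474 CPM, against 327 to 330 CPM. Tpi1 at day 6 was 420 CPM in replicate 1 against 650 to 670 CPM, and Gapdh on chow was 1240 CPM in replicate 1 against 753 to 820 CPM. The log2 ratio of Pfkl to Pfkp at day 2 was -0.47 in replicate 4 against 0.31 to 0.44, where Pfkp was highest.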

How the results depend on the processing

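Of 630 member log2 changes recomputed under alternatives other than leaving out single libraries, 598 kept their direction and their side of the threshold, 24 changed sign, 6 lost and 2 gained a call. The cause was not tested. Enzymes called at day 4 numbered 3 with library-size scaling, 0 at an adjusted p under 0.01 and 2 without chow replicate 4 and day 2 replicate 1, the 2 doubted libraries, an alternative added after seeing the data. At day 2 DESeq2 called 2. In the test of any difference, where 2 were called, no filter gave 0, DESeq2 7, limma-voom 1, an adjusted p under 0.01 gave 0 and leaving out both doubted libraries 0. Leaving out single libraries gave 0 to 5 calls at day 2, 0 to 6 at day 4, 0 to 1 for day 4 against day 2 and 0 to 7 in the test of any difference.

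The values that changed sign were as follows. Gpi1 at day 4 was -0.0029 with RLE scaling, -0.10 with library-size scaling, -0.024 with the stricter filter, -0.00015 in DESeq2, -0.0038 in limma-voom, -0.010 with only the groups compared and -0.027 without both doubted libraries. Hk1 at day 14 against day 6 was -0.00031 with RLE, -0.0092 with no filter, -0.0021 in DESeq2 and -0.0051 with the replicate block. Library-size scaling gave -0.049 for Hk1 at day 6 and -0.044 for Pfkl, -0.092 for Aldoa and -0.051 for Pgk1 at day 14. Aldoa at day 14 was -0.012 with the stricter filter, -0.0087 with the replicate block and -0.056 without both doubted libraries; against day 2 its day 4 value was -0.0013 with the stricter filter and -0.014 in limma-voom. Eno1 was 0.0060 at day 2 in limma-voom, 0.032 at day 2 without both doubted libraries and 0.0094 at day 6 without them. Hk2 at day 6 against day 4 was 0.025 in limma-voom, and Fbp2 at day 4, -3.36 in all libraries, was 0.27 without both doubted libraries and -3.75 to 0.26 without single libraries.

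Leaving out single libraries, the log2 values that changed sign in some fit had these ranges. Against chow at day 2, they were -0.14 to 0.13 for Eno1 and -0.25 to 0.057 for Pfkl to Pfkp. Against chow at day 4, they were -0.033 to 0.057 for Gpi1 and -0.41 to 0.10 for Hk2 to Hk1. Against chow at day 6, they were -0.048 to 0.13 for Hk1, -0.21 to 0.00899 for Eno1, -0.24 to 0.00254 for Pkm, -0.024 to 0.34 for Hk2 to Hk1 and -0.13 to 0.11 for Pfkl to Pfkp. Against chow at day 14, they were -0.054 to 0.19 for Hk1, -0.12 to 0.20 for Pfkl, -0.11 to 0.17 for Aldoa, -0.071 to 0.16 for Pgk1, -0.19 to 0.12 for Ldha and -0.00256 to 0.16 for Ldha to Ldhb. Day 4 against day 2, they were -0.052 to 0.18 for Pfkl, -0.065 to 0.44 for Pfkp and -0.11 to 0.11 for Aldoa. Day 6 against day 4, they were -0.14 to 0.15 for Hk2. Day 14 against day 6, they were -0.14 to 0.13 for Hk1 and -0.012 to 0.065 for Gpi1.

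Same-numbered libraries were not taken as paired, since only 1 to 5 of 10 pairs per number had a correlation over 0.1. As a hint of pairing, 10 of 20 libraries correlated best with their own number, out of 4 numbers. The mean correlation was -0.001 to 0.108 for the same number against -0.019 for other numbers. Pairing was thus not excluded. With the replicate block, 5 enzymes were called at day 4, as without it, and 551 genes rather than 366 for day 4 against day 2. Over all genes, 670 were called at day 2, 5381 at day 4, 527 at day 6, 180 at day 14, 366 for day 4 against day 2, 0 for day 6 against day 4 and 2994 for any difference. At days 2, 6 and 14 the counts were 317, 130 and 96 with no filter, 1412, 1180 and 659 in DESeq2, 177, 0 and 79 with only the groups compared, 39, 11 and 37 at an adjusted p under 0.01, and 7, 3 and 37 without both doubted libraries. limma-voom gave 437 at day 2 and library-size scaling 907 at day 6. Day 4 against day 2 gave 912 in DESeq2 and 0 with library-size scaling, no filter, limma-voom, only the groups compared, an adjusted p under 0.01 or without both doubted libraries, and day 6 against day 4 gave 53 in DESeq2. An adjusted p under 0.01 left 2635 genes at day 4 and 445 for any difference, where leaving out both doubted libraries left 755.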
